A study of Homo sapiens with 4 samples.

Results

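Aminoacyl-tRNA synthetases are the enzymes that attach each amino acid to its tRNA, the step that supplies charged tRNA to the ribosome. The 35 synthetase genes described here were chosen by name, 19 of them encoding enzymes of the cytosol and 16, with the suffix 2, enzymes of the mitochondrion, out of 18417 genes measured. Each gene was represented by the array probe set that the platform annotation ties to its symbol alone. Where a gene had more than 1 such probe set, the brightest was used. All 35 were found, on 37 probe sets, and no probe set shared between several genes named any of them by its current symbol. Older symbols were not searched for in the shared probe sets. Choice by name used no measured value, but the list was made with earlier results of these data known.

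RNA came from H1299 cells, which were derived from a human lung carcinoma and make no p53 of their own, carrying a stable tet-on construct for wild-type mouse p53. The induced group received 0.5 µg/mL doxycycline, the drug that turns the construct on, for 24 hours (2 arrays), and the uninduced group was the same line before induction (2 arrays). Both were grown in medium with 10% tetracycline-free serum, and the labels do not say whether the line is a single clone. They call the arrays of a group technical replicates, so the p-values below measure only the spread between arrays. No doxycycline-treated cells without the construct were compared here, and the uninduced arrays were taken at 0 hours. Effects of the drug, of p53 and of 24 hours in culture therefore cannot be told apart. In bulk RNA, fewer cells making a transcript and less of it per cell cannot be told apart either.

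In the cytosol 7 of these enzymes are bound, by background knowledge, in the multisynthetase complex, a large assembly held together by scaffold proteins, while the others work free or with other partners. Mitochondria import their own set, encoded by separate nuclear genes, except that KARS1 and GARS1 supply both compartments. Many cytosolic synthetase genes belong to the amino acid response, in which the kinase GCN2 (EIF2AK4) senses uncharged tRNA and the transcription factor ATF4 raises genes that carry a C/EBP-ATF response element.

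Induction was checked on a pair of p53 targets. CDKN1A, the p21 inhibitor of cyclin-dependent kinases, stood at 12.63 and 12.50 log2 units on the induced arrays, against 9.16 and 9.11 on the uninduced arrays, and MDM2, the ubiquitin ligase that degrades p53, at 12.70 and 12.76, against 9.84 and 9.85. Of 7 epithelial and mesenchymal genes listed for the line, 1 rose, 2 fell and 4 did not pass. Of all 18417 genes, 20.6% rose and 24.6% fell. At or above the 40th percentile of mean level, where 5 of the 7 lay, 27.7% rose and 34.8% fell. The keratin gene KRT8 rose 2.21-fold (adjusted p = 0.000240), with 10.45 and 10.81 on the induced arrays, against 9.41 and 9.56 on the uninduced arrays. The vimentin gene VIM, at levels of 12.29 to 12.75, fell by 0.40 (adjusted p = 0.00556) and the N-cadherin gene CDH2 fell by 0.345 (adjusted p = 0.0110). KRT18 (10.98 to 11.17) and KRT7 (7.49 to 7.92) did not pass, nor did the epithelial adhesion genes EPCAM and CDH1, which lay between 5.39 and 5.94 on all arrays. Of 21 measured markers of blood, fibroblast, endothelial and differentiated lung cells, 3 rose (SCGB1A1, SFTPC and CD3E), 0 fell and 18 did not pass the test. Only 4 of these 21 were at or above the 40th percentile of mean level. The shares over all genes were again 20.6% higher and 24.6% lower. Blood markers differed widely in level. PTPRC, the dimmest of them, stayed between 3.92 and 4.2, whereas NKG7 lay between 7.81 and 7.97 and CD68 between 11.71 and 11.96. SCGB1A1, a club cell gene, stood at 8.53 on both induced arrays, against 6.59 and 6.41 on the uninduced arrays. The 21 markers ranged from 3.42 to 11.96, and their median level was 6.605 on the induced arrays and 6.41 on the uninduced arrays. The part of either set of markers in the results below was not tested. The lowest value of any synthetase gene was 7.24, and all 35 were at or above the 40th percentile of mean level. Their probe sets varied little within a group, with a median SD of 0.057 log2 units on the induced arrays and 0.042 on the uninduced arrays.

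Synthetase transcripts did not move together. With limma's moderated test and Benjamini-Hochberg adjustment over all genes, at an adjusted p under 0.05, 7 of the 35 rose on the induced arrays, 18 fell and 10 did not pass. That is 25 called members. Of all 18417 genes 45.1% were called (20.6% higher, 24.6% lower), but of the 11053 genes at or above the 40th percentile of mean level, where all the synthetases lie, 62.5% were (27.7% higher, 34.8% lower). The median log2 fold change (induced minus uninduced) was -0.26 over the 35 genes, against 0 over all genes and -0.035 over the 11053 brighter ones. Only 3 of the 35 changed at least 2-fold (SARS1 higher, MARS1 and AARS1 lower), where 13.2% of all genes did (6.48% higher, 6.77% lower). On 33 of the 35 the induced and uninduced arrays did not overlap, as they did not on 66.8% of all genes. The overlaps were in PARS2 and TARS2. Neither this share nor that of 2-fold changes was counted among the brighter genes alone. The range ran from SARS1 at 1.745 to MARS1 at -1.16 on the log2 scale. Of all genes, 2.20% rose more than SARS1 and 5.0% fell more than MARS1.

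**Figure D1:**
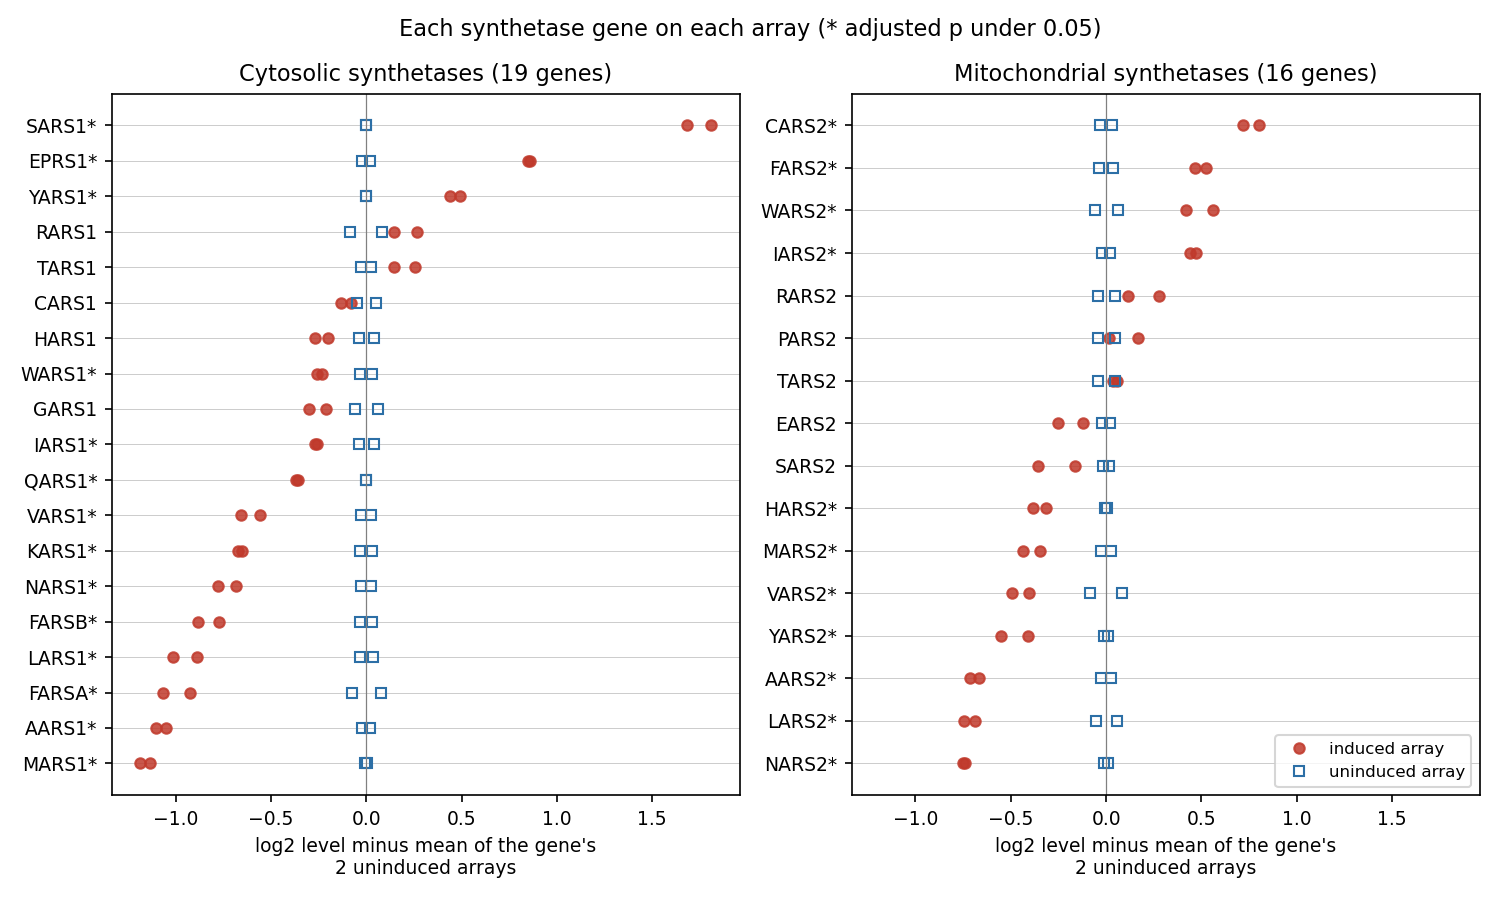
Log2 level of each synthetase gene on each array minus the mean of that gene's 2 uninduced arrays, for 19 cytosolic (left) and 16 mitochondrial genes (right), with filled circles for induced and open squares for uninduced arrays. SARS1 stands apart at the top (1.745), 11 cytosolic and 7 mitochondrial genes marked with an asterisk lie to the left of 0, and the 2 arrays of a group differ by at most 0.19.

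The largest change was in SARS1 (probe set 7903619), seryl-tRNA synthetase, which also charges the tRNA for selenocysteine with serine. It stood at 11.59 and 11.72 log2 units on the induced arrays, against 9.91 and 9.91 on the uninduced arrays, a 3.35-fold rise (log2 fold change 1.745, SE 0.088, adjusted p = 4.4e-06 in limma's test). Both induced arrays lay above both uninduced ones. EPRS1 (probe set 7924351), the bifunctional glutamyl-prolyl-tRNA synthetase, had 11.59 and 11.58 on the induced arrays, against 10.71 and 10.75 on the uninduced arrays. It rose 1.81-fold (log2 fold change 0.855, SE 0.081, adjusted p = 9.3e-05). YARS1, tyrosyl-tRNA synthetase, had 10.67 and 10.72 on the induced arrays, against 10.23 on both uninduced arrays, and rose 1.38-fold (SE 0.082 on the log2 scale, adjusted p = 0.00231). These were the 3 cytosolic genes that rose. The call of YARS1 was lost without uninduced array 1, without uninduced array 2 and when a change of more than 1.2-fold was asked for. Those of SARS1 and EPRS1 held under each of 12 alternatives.

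The deepest fall was in MARS1 (probe set 7956443), methionyl-tRNA synthetase, which charges the initiator as well as the elongator tRNA. It had 9.78 and 9.83 log2 units on the induced arrays, against 10.97 and 10.96 on the uninduced arrays, which is 2.23-fold lower (-1.16 on the log2 scale, SE 0.082, adjusted p = 2.1e-05). AARS1 (probe set 8002347), alanyl-tRNA synthetase, had 10.08 and 10.03 on the induced arrays, against 11.15 and 11.11 on the uninduced arrays. It was 2.11-fold lower (SE 0.082 on the log2 scale, adjusted p = 3.2e-05), and the groups did not overlap in either gene. The 5 genes with the largest absolute change for which RefSeq promoter windows were at hand are shown here with that sequence, to set the strongest risers beside the strongest fallers. Each window runs from 250 bases before to 50 bases after the transcription start, 5′ to 3′ on the gene's strand, from RefSeq on GRCh38.p14. Capitals mark matches to the C/EBP-ATF response element (TGATGNAA, or TTNCATCA on the other strand) and to the ETS motif (CCGGAAG, or CTTCCGG on the other strand).
SARS1, chr1:109213643-109213942, + strand: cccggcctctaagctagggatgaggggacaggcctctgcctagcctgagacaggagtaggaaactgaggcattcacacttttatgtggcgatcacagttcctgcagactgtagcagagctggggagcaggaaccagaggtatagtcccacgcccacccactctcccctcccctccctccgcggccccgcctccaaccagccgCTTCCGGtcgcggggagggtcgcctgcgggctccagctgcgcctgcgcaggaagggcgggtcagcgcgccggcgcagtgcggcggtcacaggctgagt
EPRS1, chr1:220046456-220046755, - strand: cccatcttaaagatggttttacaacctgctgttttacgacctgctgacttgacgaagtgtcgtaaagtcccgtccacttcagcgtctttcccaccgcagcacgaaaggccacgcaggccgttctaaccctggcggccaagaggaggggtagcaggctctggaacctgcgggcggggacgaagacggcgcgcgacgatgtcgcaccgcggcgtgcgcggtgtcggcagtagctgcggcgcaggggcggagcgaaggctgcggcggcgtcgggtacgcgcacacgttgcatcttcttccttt
FARSA, chr19:12933662-12933961, - strand: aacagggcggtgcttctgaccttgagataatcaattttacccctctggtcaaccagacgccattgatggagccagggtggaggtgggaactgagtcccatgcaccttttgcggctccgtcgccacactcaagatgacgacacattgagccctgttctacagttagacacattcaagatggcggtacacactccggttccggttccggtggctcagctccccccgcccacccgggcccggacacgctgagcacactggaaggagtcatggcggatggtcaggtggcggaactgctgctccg
AARS1, chr16:70289457-70289756, - strand: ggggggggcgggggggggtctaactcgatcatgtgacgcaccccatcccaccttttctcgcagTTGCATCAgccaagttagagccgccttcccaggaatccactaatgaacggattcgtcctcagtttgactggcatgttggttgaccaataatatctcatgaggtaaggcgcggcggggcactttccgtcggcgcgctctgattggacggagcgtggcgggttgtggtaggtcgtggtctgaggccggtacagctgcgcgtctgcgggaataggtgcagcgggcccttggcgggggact
MARS1, chr12:57487818-57488117, + strand: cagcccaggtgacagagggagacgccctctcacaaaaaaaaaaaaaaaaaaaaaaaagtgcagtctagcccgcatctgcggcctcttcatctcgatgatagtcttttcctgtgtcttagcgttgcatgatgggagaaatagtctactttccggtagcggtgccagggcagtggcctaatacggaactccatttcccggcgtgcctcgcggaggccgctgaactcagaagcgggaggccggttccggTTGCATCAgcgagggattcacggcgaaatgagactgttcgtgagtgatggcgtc

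Both strong fallers AARS1 and MARS1 held the C/EBP-ATF letters, AARS1 at 187 bases before the start and MARS1 across the start, beginning 4 bases before it. The window of SARS1 held an ETS match 48 bases before the start and no C/EBP-ATF letters, and those of EPRS1 and FARSA held neither, which says only that these letters are not in these windows. Windows were at hand for 30 of the 35 genes, 39 windows in all because 9 genes had more than 1 start; LARS1, VARS1, YARS1, AARS2 and VARS2 had no entry. The C/EBP-ATF motif, searched on both strands, occurred in 8 of these 30 genes (26.7%), against 4.46% of 27305 genes with a window. The stretches around the match in the other 6 genes are shown for comparison with the match in capitals, at a further annotated start in TARS1 and GARS1.
NARS1, chr18:57621804-57621833, - strand: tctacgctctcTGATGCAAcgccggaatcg
IARS1, chr9:92293692-92293721, - strand: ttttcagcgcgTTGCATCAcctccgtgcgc
CARS1, chr11:3057407-3057436, - strand: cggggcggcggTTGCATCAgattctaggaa
TARS1, chr5:33440956-33440985, + strand: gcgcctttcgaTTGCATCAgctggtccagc
GARS1, chr7:30594834-30594863, + strand: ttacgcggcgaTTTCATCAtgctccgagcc
YARS2, chr12:32756076-32756105, - strand: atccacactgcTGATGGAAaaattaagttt

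The letters were TTGCATCA, or its reverse complement TGATGCAA in NARS1, in 6 of the 8 genes, and they differed in GARS1 and YARS2. Of the 8 genes with the motif, 0 rose, 5 fell (AARS1, MARS1, NARS1, IARS1 and YARS2) and 3 did not pass the test (CARS1, GARS1 and TARS1), with a median log2 fold change of -0.3725. Of the 22 genes with windows but no match, 6 rose, 9 fell and 7 did not pass, with a median of -0.21. The ETS motif, also searched on both strands, occurred in 16 of the 30 genes (53.3%), against 12.2% of the 27305 genes with a window. Of these 16, 2 rose, 5 fell and 9 did not pass, with a median of -0.21. Of the 14 genes without it, 4 rose, 9 fell and 1 did not pass, with a median of -0.4225. For all these groups, the share among the brighter genes was 27.7% higher and 34.8% lower. The E-box CACGTG, its own reverse complement, occurred in 4 genes, CARS2, EARS2, IARS1 and MARS2 (13.3%, against 8.77% of the genes with a window). The p53 decamer consensus occurred in PARS2 alone (3.33%, against 8.06%). No 2 matches of different motifs overlapped in these windows. These counts describe letters, and no test was made of them. The motif shares over genes with a window were not counted among the brighter genes alone. Of the synthetase genes, 9 were searched in more than 1 window.

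Among the 7 genes of the multisynthetase complex, 1 rose (EPRS1), 5 fell and 1 did not pass, with a median log2 fold change of -0.365. Of the genes at or above the 40th percentile of mean level, where all the synthetases lie, 27.7% rose and 34.8% fell. After MARS1 the next fall was that of LARS1, leucyl-tRNA synthetase, also known as a leucine sensor of the mTORC1 pathway. LARS1 had 9.95 and 10.08 log2 units on the induced arrays, against 10.93 and 11 on the uninduced arrays (log2 fold change -0.95, SE 0.090, adjusted p = 8.9e-05). KARS1, lysyl-tRNA synthetase, had 10.77 and 10.79 on the induced arrays, against 11.47 and 11.41 on the uninduced arrays (log2 fold change -0.66, SE 0.082, adjusted p = 0.000384). In both genes the induced arrays lay below the uninduced ones. QARS1, glutaminyl-tRNA synthetase, had 10.79 and 10.80 on the induced arrays, against 11.16 on both uninduced arrays, and IARS1, isoleucyl-tRNA synthetase, had 11.32 and 11.33, against 11.55 and 11.63. Their log2 fold changes were -0.365 (adjusted p = 0.00724) and -0.265 (adjusted p = 0.0349). These smaller calls were less firm: that of QARS1 was lost without either uninduced array, and that of IARS1 without any 1 of the 4 arrays and also with each array centred on its median (adjusted p = 0.0806) and with all rows tested (0.0682). Neither passed when a change of more than 1.2-fold was asked for. RARS1, arginyl-tRNA synthetase, stood at 11.20 and 11.32 on the induced arrays, against 10.97 and 11.14 on the uninduced arrays, and did not pass (log2 fold change 0.205, 95% interval -0.024 to 0.434). The members of 1 complex therefore spanned 0.855 to -1.16 on the log2 scale. AIMP1, a scaffold protein gene of the complex and the 1 measured of 3 scaffold genes listed, had 7.84 and 7.87 on the induced arrays, against 8.29 and 8.28 on the uninduced arrays, and fell by 0.43 (SE 0.081, adjusted p = 0.00331).

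Of the 12 cytosolic genes outside that complex, 2 rose (SARS1 and YARS1), 6 fell and 4 did not pass, with a median of -0.25. The share among the brighter genes was again 27.7% higher and 34.8% lower. FARSA and FARSB encode the 2 kinds of subunit of cytosolic phenylalanyl-tRNA synthetase, and both fell. FARSA (probe set 8034589) had 10.06 and 9.92 log2 units on the induced arrays, against 11.06 and 10.91 on the uninduced arrays (log2 fold change -0.995, SE 0.097, adjusted p = 0.000106). FARSB had 10.63 and 10.74 on the induced arrays, against 11.48 and 11.54 on the uninduced arrays (log2 fold change -0.825, SE 0.087, adjusted p = 0.000160). NARS1, asparaginyl-tRNA synthetase, had 10.30 and 10.39 on the induced arrays, against 11.10 and 11.05 on the uninduced arrays, a difference of -0.73 (SE 0.085, adjusted p = 0.000269). VARS1, valyl-tRNA synthetase, which associates with elongation factor 1, had 10.12 and 10.22, against 10.80 and 10.75, with -0.605 (SE 0.086, adjusted p = 0.000759). In these 4 genes every induced array lay below every uninduced array, and the calls held under each of the 12 alternatives. The other VARS1 probe set carried the same values on every array.

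WARS1, tryptophanyl-tRNA synthetase, is a gene that interferon gamma raises. It had 9.76 and 9.73 log2 units on the induced arrays, against 10.02 and 9.96 on the uninduced arrays, a fall of small size (log2 fold change -0.245, SE 0.083, adjusted p = 0.0453) that lost its call when any 1 array was left out, with centring on the median (0.101), with quantile normalization applied again (0.0515), with all rows tested (0.0818) and when a change of more than 1.2-fold was asked for. Of 6 measured interferon gamma response genes, 3 rose, 0 fell and 3 did not pass, where 20.6% of all genes rose. The 3 that rose were at or above the 40th percentile of mean level, where 27.7% of genes rose. The 3 that did not pass lay below it. IRF1, an interferon response transcription factor, had 9.77 and 9.82 on the induced arrays, against 7.45 and 7.36 on the uninduced arrays (log2 fold change 2.39, SE 0.085, adjusted p = 1.2e-06). TAP1, a peptide transporter of antigen presentation, rose 2.92-fold and PSMB9, an immunoproteasome subunit, 1.83-fold, whereas the dim guanylate-binding protein gene GBP2, at levels of 4.72 to 5.21, differed by -0.15 on the log2 scale (SE 0.16, adjusted p = 0.513).

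The remaining cytosolic genes did not pass. CARS1, cysteinyl-tRNA synthetase, had a log2 fold change of -0.105 (95% interval -0.307 to 0.097), TARS1, threonyl-tRNA synthetase, one of 0.20 (-0.0038 to 0.404), GARS1, glycyl-tRNA synthetase, one of -0.255 (-0.466 to -0.044) and HARS1, histidyl-tRNA synthetase, one of -0.235 (-0.436 to -0.034). The intervals of GARS1 and HARS1 are unadjusted and exclude 0, and their adjusted p-values were 0.0533 and 0.0596. Both passed with quantile normalization applied again (0.0499 and 0.0489), without dim probe sets (0.0216 and 0.0235) and with a prior that follows intensity (0.00075 and 0.00104), and GARS1 also with the replicate number as a block (0.0448). TARS1 passed without dim probe sets (0.0475), and TARS1 and RARS1 with a prior that follows intensity (0.00441 and 0.00715).

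**Figure D2:**
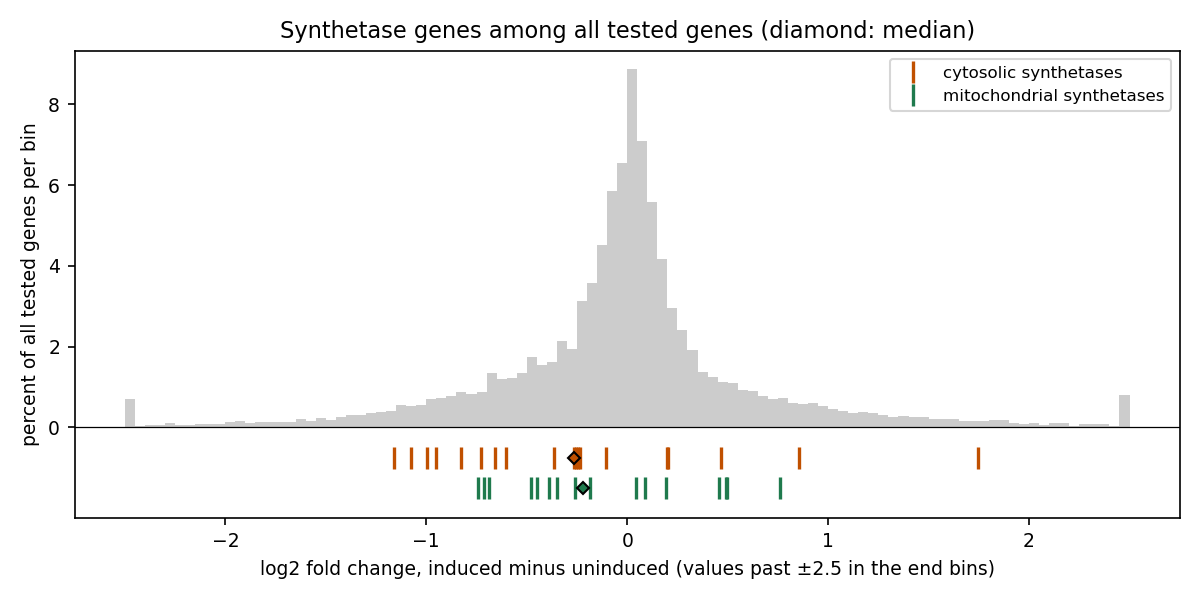
Distribution of log2 fold changes (induced minus uninduced) over all 18417 tested genes as percent of genes per bin (grey), with a tick for each cytosolic and each mitochondrial synthetase and a diamond at each compartment's median. The ticks of both compartments fall on both sides of 0, with medians of -0.265 (cytosolic) and -0.2225 (mitochondrial) and SARS1 alone above 1.

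The mitochondrial synthetases, which serve the few proteins made inside the organelle, spread over a narrower range, from -0.745 to 0.76 on the log2 scale. They were also dimmer, with a median level of 8.6 on the induced and 8.8075 on the uninduced arrays. The cytosolic medians were 10.695 and 10.985. The part of level in the narrower range was not tested. Among the 19 cytosolic genes 3 rose, 11 fell and 5 did not pass, with a median of -0.265. Of the 16 mitochondrial genes, 4 rose, 7 fell and 5 did not pass, with a median of -0.2225. Beside both counts, 62.5% of the brighter genes were called (27.7% higher, 34.8% lower), with a median of -0.035. With quantile normalization applied again the medians were -0.239 (cytosolic) and -0.136 (mitochondrial). The difference between the compartments was not tested, since genes are not replicates. Relative to each gene's uninduced mean, the median cytosolic gene lay at -0.30 and -0.26 on the induced arrays and at 0 on both uninduced arrays. The median mitochondrial gene lay at -0.2075 and -0.2175 on the induced arrays and at 0.0125 and -0.0125 on the uninduced arrays.

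CARS2 (probe set 7972810), mitochondrial cysteinyl-tRNA synthetase, which also makes persulfides, rose most. It had 9.61 and 9.69 log2 units on the induced arrays, against 8.92 and 8.86 on the uninduced arrays (log2 fold change 0.76, SE 0.085, adjusted p = 0.000215). FARS2, for phenylalanine, had 9.44 and 9.50, against 8.94 and 9.01 (0.495, SE 0.084, adjusted p = 0.00196). The enzyme of FARS2 is a single chain, unlike its cytosolic counterpart. WARS2, for tryptophan, had 8.90 and 9.04 on the induced arrays, against 8.54 and 8.42 on the uninduced arrays (0.49, SE 0.094, adjusted p = 0.00363), and IARS2, for isoleucine, had 10.14 and 10.17, against 9.68 and 9.72 (0.455, SE 0.082, adjusted p = 0.00258). The induced arrays lay above the uninduced ones in these 4 genes. The call of CARS2 held under each of the 12 alternatives. That of FARS2 was lost without uninduced array 1 and that of IARS2 without either uninduced array. That of WARS2 was lost without induced array 2, uninduced array 1 or uninduced array 2. IARS2 and WARS2 also lost their calls when a change of more than 1.2-fold was asked for.

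NARS2, for asparagine, fell most among the mitochondrial genes, with 8.53 and 8.54 log2 units on the induced arrays, against 9.29 and 9.27 on the uninduced arrays (log2 fold change -0.745, SE 0.081, adjusted p = 0.000184). LARS2, for leucine, had 8.26 and 8.32 on the induced arrays, against 9.06 and 8.95 on the uninduced arrays (-0.715, SE 0.087, adjusted p = 0.000339). AARS2, for alanine, had 7.29 and 7.24, against 7.93 and 7.98 (-0.69, SE 0.083, adjusted p = 0.000312). These 3 calls held under each of the 12 alternatives, and the groups did not overlap. YARS2, VARS2, MARS2 and HARS2, for tyrosine, valine, methionine and histidine, had smaller falls, with log2 fold changes of -0.48, -0.45, -0.39 and -0.35 and adjusted p-values between 0.00302 and 0.0100. Each lost its call without at least 1 array: YARS2, MARS2 and HARS2 without either uninduced array, and VARS2 without uninduced array 1 or either induced array. None of these genes passed when a change of more than 1.2-fold was asked for. A dimmer VARS2 probe set gave -0.435. The 5 genes that did not pass were SARS2, EARS2, TARS2, PARS2 and RARS2, for serine, glutamate, threonine, proline and arginine, with log2 fold changes of -0.26, -0.185, 0.045, 0.09 and 0.195. Of these, SARS2 had an adjusted p of 0.0614 and passed without dim probe sets (0.0268), with a prior that follows intensity (0.0405) and without induced array 1 (0.0380), and RARS2 passed with that prior (0.0401).

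Most amino acids have a cytosolic and a mitochondrial enzyme, which allowed 17 pairings, with FARSA and FARSB each set against FARS2 and EPRS1 against both EARS2 and PARS2. Both partners fell in 5 pairings (for alanine, leucine, methionine, asparagine and valine), the partners were called in opposite directions in 5, and 1 or both did not pass in 7. Each opposite pairing held at least 1 call that was lost under an alternative (FARS2, IARS1, IARS2, WARS1, WARS2, YARS1 and YARS2). Among the pairings that fell together, those of MARS2 and VARS2 were lost. The widest gap was for serine, where the log2 fold change of SARS1 exceeded that of SARS2 by 2.005 (SE 0.13, from both genes' SEs). FARSA and FARSB lay 1.49 (SE 0.13) and 1.32 (SE 0.12) below FARS2, with both cytosolic genes lower and the mitochondrial gene higher. Tyrosine ran the other way, with YARS1 higher and YARS2 lower (difference 0.945, SE 0.12). Isoleucine and tryptophan had the cytosolic gene lower and the mitochondrial gene higher, with cytosolic minus mitochondrial differences of -0.72 (SE 0.12) and -0.735 (SE 0.13), though the cytosolic calls of these were the least firm. For asparagine the partners' log2 fold changes differed by 0.015 (SE 0.12) and for arginine by 0.01 (SE 0.14). These differences were not tested. Their SEs take the partners of a pairing as independent, though both were read on the same arrays.

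**Figure D3:**
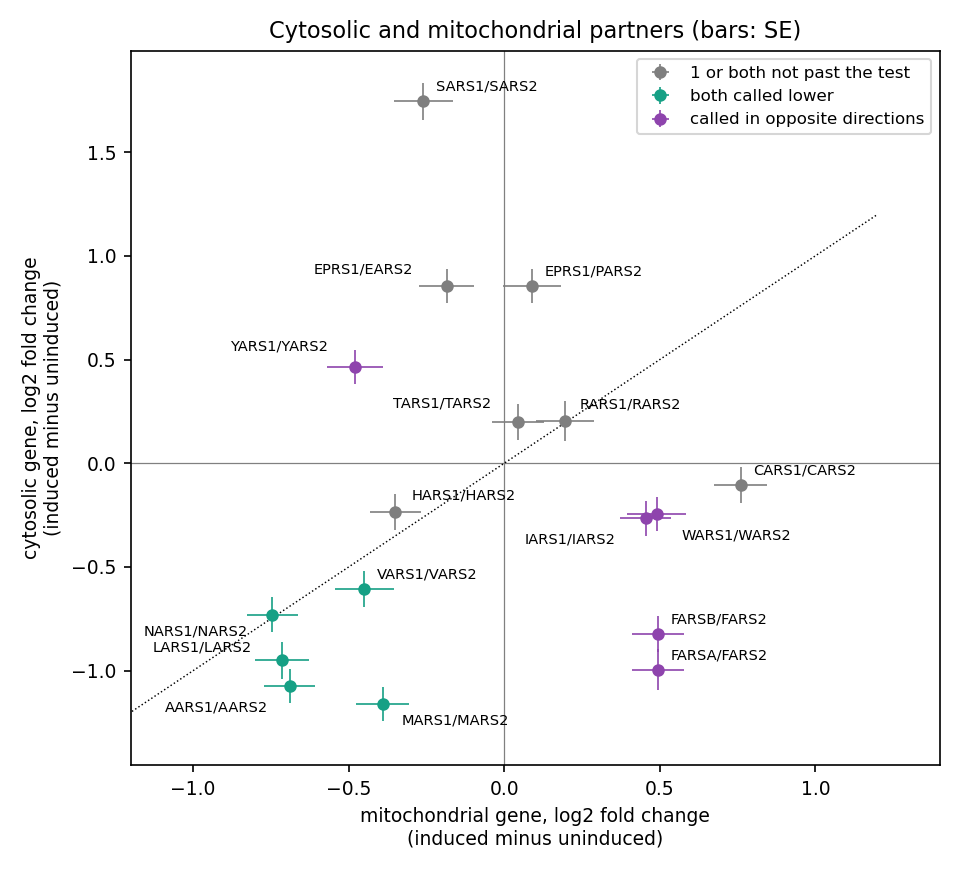
Log2 fold change (induced minus uninduced) of each cytosolic gene against that of its mitochondrial partner in 17 pairings, with SEs as bars, colours for the calls and a dotted line of equal change. The 5 pairings with both partners called lower lie at the lower left, as does HARS1 with HARS2, of which only HARS2 was called. FARSA and FARSB with FARS2 lie at the lower right, YARS1 with YARS2 lies at the upper left and SARS1 with SARS2 lies farthest from the line.

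Synthetases fall into a pair of unrelated structural classes by the fold of their active site. Of 18 class I genes, 4 rose, 10 fell and 4 did not pass (median log2 fold change -0.255), and of 16 class II genes 2 rose, 8 fell and 6 did not pass (median -0.305), EPRS1 holding an active site of each class. Of the brighter genes, 27.7% rose and 34.8% fell. In the RefSeq gene order of GRCh38.p14, 2 pairs of members lie close together. HARS1 and HARS2 are adjacent and divergent, with starts 85 bases apart, so that 184 bases of their promoter windows are shared. HARS2 had 8.63 and 8.70 log2 units on the induced arrays, against 9.02 and 9.01 on the uninduced arrays, and HARS1 had 10.76 and 10.83, against 10.99 and 11.07. Their log2 fold changes were -0.35 for HARS2 and -0.235 for HARS1, of which that of HARS2 passed. EPRS1 and IARS2, both higher, lie on chromosome 1 with 1 protein-coding gene, BPNT1, between them.

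Genes that act before and after charging were taken in lists. Of 18 measured genes of tRNA end processing, ligation and export, 2 rose, 12 fell and 4 did not pass, with a median log2 fold change of -0.335. Of these 18, 17 were at or above the 40th percentile of mean level, where 27.7% of all genes rose and 34.8% fell. RPP40, a subunit of RNase P, which trims the 5′ end of tRNA, had 7.66 and 7.98 log2 units on the induced arrays, against 9.33 and 9.38 on the uninduced arrays (-1.535, SE 0.12, adjusted p = 3.15e-05). ELAC2, the nuclease that trims the 3′ end, fell by 1.26 (SE 0.081), POP7, another RNase P subunit, fell by 1.175 (SE 0.090) and XPOT, the tRNA export receptor, fell by 1.14 (SE 0.083), with adjusted p-values between 1.4e-05 and 3.2e-05. Of 4 genes of selenocysteine charging and of editing, SEPSECS, which turns the serine that SARS1 loads into selenocysteine, rose 1.73-fold (adjusted p = 0.000306). PSTK, the kinase of the step between, fell by 0.275 (SE 0.091, adjusted p = 0.0432), and DTD1 and DTD2, deacylases that remove D-amino acids or mischarged residues, had log2 fold changes of -0.355 and -0.585. In the mitochondrion, where glutaminyl-tRNA is made by an amidotransferase, its subunit gene QRSL1 fell by 0.705 (adjusted p = 0.000485). GATB and GATC of the same enzyme had log2 fold changes of -0.095 and -0.115 and did not pass. MTFMT, which formylates the methionine on the mitochondrial initiator tRNA, rose 1.53-fold (adjusted p = 0.000775).

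EIF2AK4, the GCN2 kinase gene, had 11.48 and 11.54 log2 units on the induced arrays, against 9.63 and 9.72 on the uninduced arrays, a 3.57-fold rise (log2 fold change 1.835, SE 0.085, adjusted p = 3.3e-06). Of 9 genes of uncharged tRNA sensing and eIF2 alpha phosphorylation, 5 rose, 2 fell and 2 did not pass. All 9 were among the brighter genes, of which 62.5% were called (27.7% higher, 34.8% lower). EIF2AK2, the double-stranded RNA-activated kinase PKR, rose 1.86-fold (adjusted p = 0.000173), while PPP1R15B, a subunit of the phosphatase that reverses the mark, fell by 1.075 (SE 0.082) and EIF2S1, which encodes eIF2 alpha itself, fell by 0.88 (SE 0.081). ATF4, whose activity is set mainly through its translation, had 10.73 and 10.74 on the induced arrays, against 10.76 and 10.68 on the uninduced arrays (log2 fold change 0.015, SE 0.083, adjusted p = 0.912). Of 24 genes in the list of ATF4 and its targets other than synthetases, 9 rose, 12 fell and 3 did not pass, with a median of -0.18; 20 of the 24 were among the brighter genes, with that same share of 62.5% called (27.7% higher, 34.8% lower). CHAC1, which degrades glutathione, rose 4.82-fold, DDIT3, the stress factor CHOP, 2.62-fold and SESN2, an inhibitor of mTORC1, 2.59-fold, of which SESN2 is also a known p53 target. SLC7A11, the cystine transporter, fell by 1.415 (SE 0.11) and ASNS, asparagine synthetase, an amidotransferase that makes the free amino acid, fell by 0.93 (SE 0.091, adjusted p = 0.000108). These lists were described only by counts and medians.

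**Figure D4:**
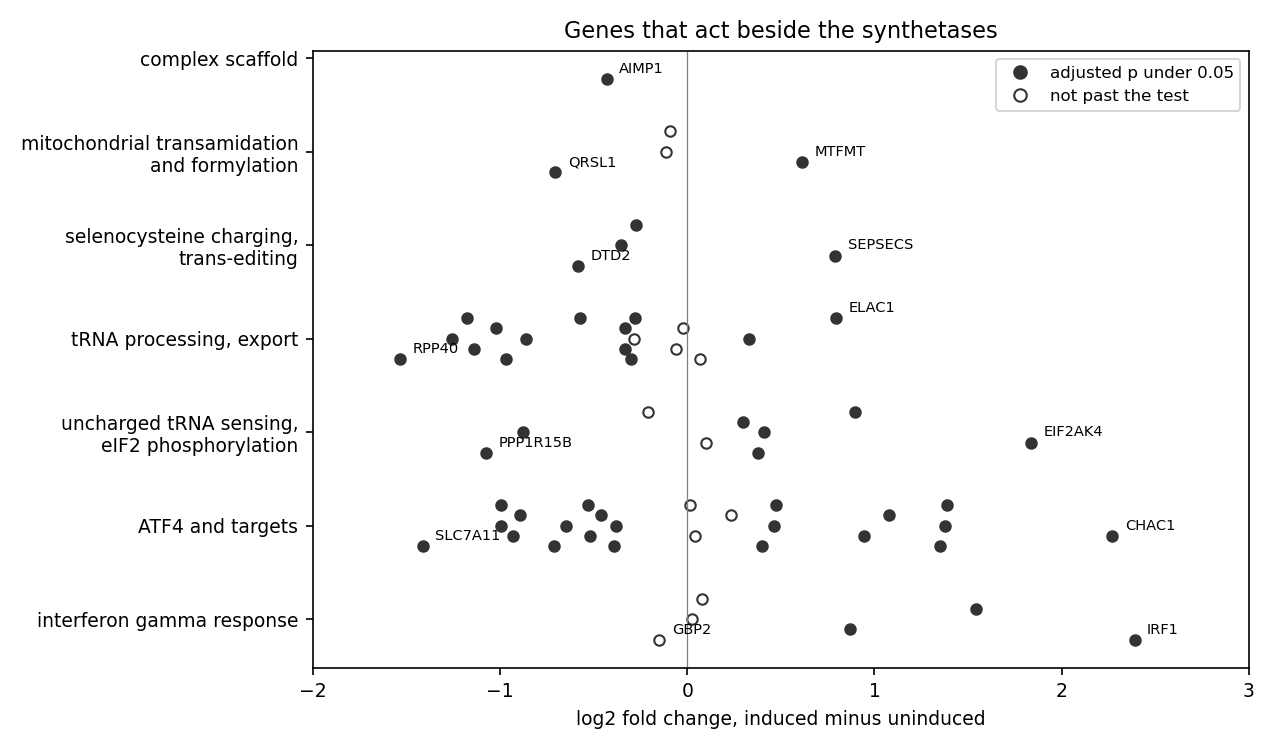
Log2 fold change (induced minus uninduced) of each measured gene in 7 lists that act beside the synthetases, filled where the adjusted p was under 0.05, with the highest and lowest gene of each list named; vertical offsets within a list carry no value. tRNA processing and export genes lie mostly to the left of 0, EIF2AK4 at 1.835 leads the sensing list, and the ATF4 list spreads from SLC7A11 at -1.415 to CHAC1 at 2.27.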

How the data were processed

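The deposited table gives 1 log2 expression level per probe set and array, rounded to 2 decimals, made by the authors with Affymetrix Expression Console and RMA, per the submitters' processing notes. Their versions and settings, and a genome build, were not stated in the labels used. RMA gives the arrays 1 probe-level distribution and compresses changes of dim genes, so a change common to all transcripts would be hidden. Of 33297 rows, 19460 carried 1 gene symbol, 19429 of which matched the RefSeq gene table by gene ID; the brightest probe set per gene left 18417 genes. Induced and uninduced arrays (groups and numbers from the titles) were compared with limma 3.58.1 in R 4.3.3 (lmFit, eBayes, constant prior, no covariate, 7.20 total degrees of freedom), as a two-sided test; p-values were adjusted over the 18417 genes (Benjamini-Hochberg) and called under 0.05. SEs and 95% intervals are limma's moderated ones. The number of arrays limits the precision. The fit was tested on simulated data. Members and lists were chosen with earlier results of these data known. All members are named, with the 4 largest changes of each list, or all of lists up to 5; ATF4, ASNS and the markers were picked after their values were seen. Motifs and figures used Python 3.11.15. Alternatives were another quantile normalization, median centring, a dim filter, averaged probe sets, all rows, an intensity trend with a robust prior, treat at 1.2-fold, a replicate block and leaving out each array.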

Additional observations from a re-analysis of the deposited data

How the results depend on the processing

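No member and neither compartment median reversed direction under the 12 alternatives, though TARS2 showed no difference without uninduced array 2. Of the 25 calls 14 held under all 12 alternatives (3 higher, 11 lower). The other 11 were lost, and 6 uncalled genes gained a call, under at least 1. Counts were lower where limma's treat asked for more than a 1.2-fold change, by its own construction, with 15 members called (4 higher, 11 lower) and 5479 genes in all (2502 higher, 2977 lower). Leaving out each array gave 14 to 23 members (3 to 7 higher, 11 to 16 lower) and 4959 to 6904 genes (2316 to 3119 higher, 2643 to 3785 lower), with the lone array of a group assumed to vary like the others. The fewest members were called without uninduced array 1 (14) or uninduced array 2 (16). The cytosolic median ranged from -0.315 to -0.26 over these fits and was -0.215 with each array centred on its median. The mitochondrial median ranged from -0.24 to -0.205 and was -0.136 with quantile normalization applied again; the cause of these shifts was not tested. With the replicate number as a block, 26 members and 7820 genes were called. Same-numbered arrays deviated together with r = 0.225 across genes, but the titles give only a number, with 2 pairs. With 2 arrays a group, outlying arrays could not be looked for, and no detection call was used to set a lower limit of measurement.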
